A study of Gossypium hirsutum with 30 samples.

Results

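Brassinosteroid genes of cotton are described here through 8 probe sets of the cotton GeneChip, matched by name to DET2 (1), SMT2 (2), the cytochrome P450 CYP87A2 (1), the receptor gene BRI1 (2) and BAS1 (2). They are 8 of the 24029 probe sets tested, and they were taken as a given list of probe set names. The list was drawn from the study's own tables of transcripts that had passed its thresholds on these arrays, so a large difference at some stage was fixed for each of them by choice. The tested tissue was the ovule of a fuzzless-lintless (fl) mutant of Gossypium hirsutum cv. MCU5, a spontaneous and naturally arisen line that bears neither fuzz nor lint and is near-isogenic to its parent. The comparison tissue was the fibre-bearing ovule of the wild-type (WT) MCU5. Both were grown in the field, and ovules were taken from bolls on the day of anthesis and 5, 10, 15 and 20 days post anthesis (dpa), with 3 biological replicates of each genotype at each stage, 30 arrays in all.

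Brassinosteroids are plant steroid hormones made from membrane sterols. Sterol methyltransferases such as SMT2 shape the side chain of the sterol precursors, the steroid reductase DET2 and a set of cytochrome P450 enzymes turn campesterol into active hormone, the leucine-rich repeat kinase BRI1 perceives it at the cell surface, and BAS1, another cytochrome P450, hydroxylates and thereby inactivates it. These roles were worked out mainly in Arabidopsis. In cultured cotton ovules, added brassinosteroid promotes the growth of fibres, which are single elongated cells of the seed coat epidermis, and blocking its synthesis hinders it.

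The names are best matches to Arabidopsis genes, and several are weak. The array describes CYP87A2 (Ghi.1119.1.S1_s_at) as weakly similar to that enzyme, a cytochrome P450 of another family than CPD, the brassinosteroid synthesis enzyme to which the study's hormone table matched it. DET2 (GhiAffx.2821.1.S1_at) is a weak match to the steroid reductase family, and the hormone table lists it under abscisic acid. Of the SMT2 matches, one is described as a sterol C-methyltransferase, SMT2-2, which is the role its name gives, and is called SMT2-2 below (Ghi.10022.1.A1_x_at). The other is described as a phosphoethanolamine N-methyltransferase, NMT2, an enzyme of phosphocholine synthesis, and is called NMT2 below (GhiAffx.53661.1.S1_s_at) although the hormone table gives SMT2. Of the BRI1 matches, one is described only as a leucine-rich repeat protein (the LRR BRI1 match, GhiAffx.21120.1.A1_at), and the other matched a receptor-like protein in the study's transcript list and BRI1 in its hormone table (the receptor-like BRI1 match, GhiAffx.6314.3.S1_at). The BAS1 matches are described as a cytochrome P450-like protein (the P450-like BAS1 match, Ghi.1198.1.S1_at) and a monooxygenase (the monooxygenase BAS1 match, Gra.2743.1.S1_at). In 3 of the 8, the ending _s_at or _x_at marks probes that can bind more than 1 transcript, and in this tetraploid the copies from the parental genomes cannot be told apart. NMT2 alone, 1 of the 8, has a cotton gene symbol in the platform table used here, LOC107931051.

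The values are log2 signals in which 0 is the median of the 6 arrays of a stage, so they hold differences between the genotypes within a stage and no expression level. A transcript was said to pass with a limma p no greater than 0.01 after Benjamini-Hochberg adjustment over all 24029 probe sets and a fold change of 3 or more. Means are given with SD and n = 3 arrays per genotype, and log2 differences are fl mutant minus WT. The sample labels give, for 5 and for 20 dpa, the opposite of the direction in the study's own tables. The labels were followed at every stage, so each sign below for these stages would turn round if the genotype labels of those stages had been exchanged. Most fibre markers took part in this. Of 8 fibre genes, 6 passed below WT at 10 dpa (6.55% of all probe sets did) and 1, the expansin EXPA2, passed above WT (4.91% of all), 3.07-fold. At 15 dpa 6 passed below WT, against 1.91% of all, and none above. At 20 dpa, by the labels, 6 passed above WT, against 2.47%, and none below, with EXPA2 at -1.13 and the MYB25 marker at -0.26. None passed at 5 dpa. At 0 dpa 1 passed below WT, the MYB25 marker, 36.1-fold lower, where 334 of all 24029 probe sets passed below WT, and none passed above. Averaged over the 8 markers, the fl mutant arrays lay between -2.00 and -1.82 at 10 dpa, against 1.75 to 1.93 for WT, and at 20 dpa between 1.13 and 1.19 in the fl mutant, against -1.22 to -1.10 in WT. At 0 dpa these means lay between -0.51 and -0.48 in the fl mutant, against 0.48 to 0.51 in WT. The seed storage protein beta-globulin, an embryo marker, was 9.57 log2 units higher in the fl mutant at 20 dpa by the labels. All 5 seed coat flavonoid genes passed below WT there, against 1.95% of all probe sets. Whether labels were exchanged, and what part fibre, embryo and seed coat RNA had in the results, was not tested. In whole ovules fewer cells of a type and less RNA per cell cannot be told apart, and with levels removed from the table it cannot be said which markers were at background.

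The genotype differences of the 8 transcripts were concentrated at 10, 15 and 20 dpa. None of the 8 passed at 0 dpa, where 1.54% of all probe sets passed, and none at 5 dpa, where 2.01% did. At 10 dpa 5 passed, against 11.5% of all probe sets. Of these, 4 fell below WT, as did 6.55% of all probe sets, and 1 exceeded WT, as did 4.91%. At 15 dpa 2 passed, against 3.43%, both below WT, where 1.91% lay (1.52% lay above). At 20 dpa 4 passed, against 4.42%, and by the labels each exceeded WT, as did 2.47% (1.95% fell below). No overlap between the genotypes was found in 4, 4, 7, 6 and 7 of the 8 from 0 to 20 dpa, against 56.9%, 49.2%, 64.3%, 54.8% and 58.3% of all probe sets. The median log2 difference of the 8 was 0.02, -0.04, -1.11, -0.07 and 1.41 at the 5 stages in order, and over all probe sets it stayed between -0.07 and 0.09. Since the transcripts were listed for passing somewhere, these counts describe when they passed and are no evidence that they pass more often than other genes. CYP87A2 passed at 15 and 20 dpa, and the P450-like BAS1 match at 10, 15 and 20 dpa. Without the arrays of 5 and 20 dpa, only the P450-like BAS1 match passed at 2 or more stages. How many of all probe sets do so was not computed. The plot of differences by stage shows each transcript's difference with its interval.

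**Figure D1:**
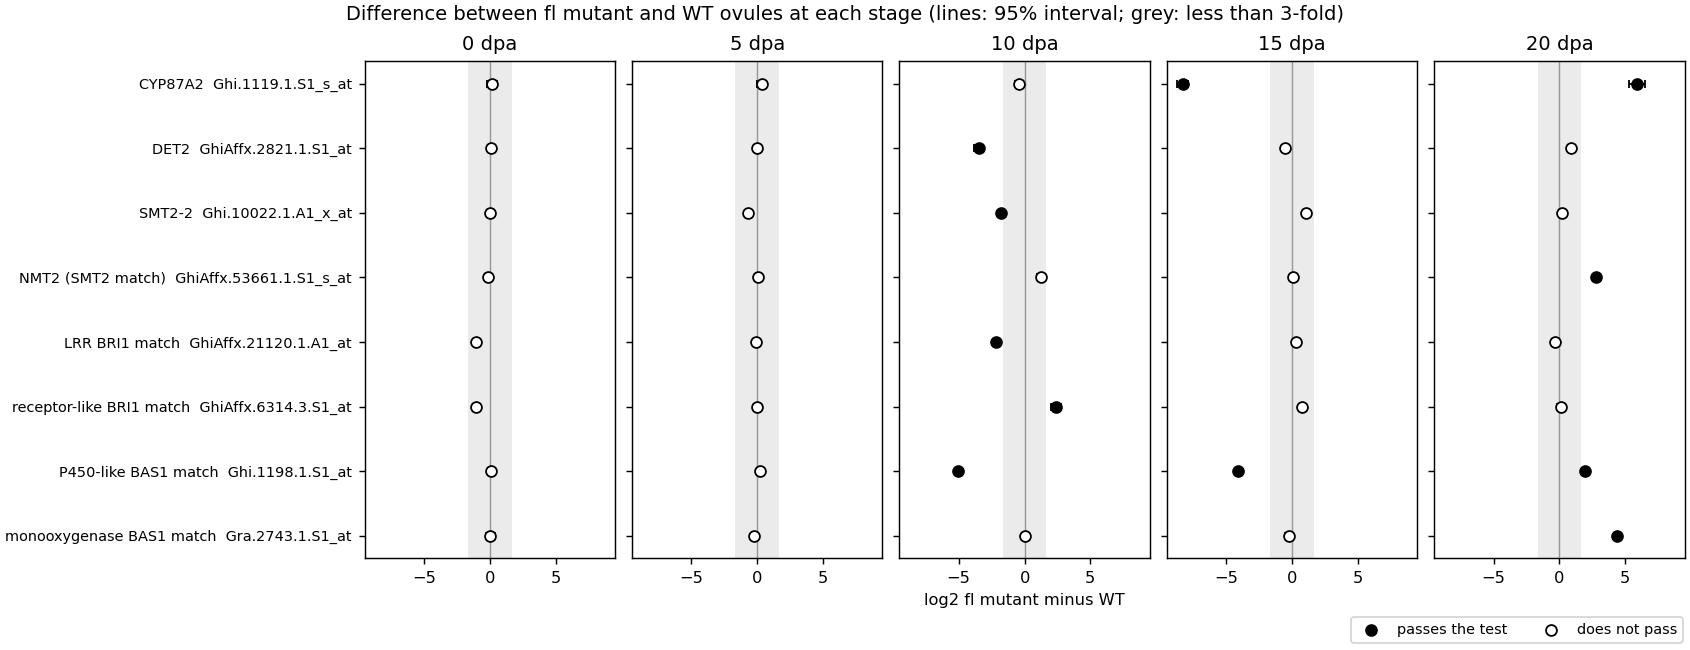
Log2 difference between fl mutant and WT ovules for each of the 8 probe sets (rows) by stage in dpa (panels); lines are 95% intervals of limma, filled points pass the test, and the grey band holds differences under 3-fold. The 2 strongest differences of CYP87A2 point in opposite directions, -8.30 at 15 dpa and, by the labels, 5.87 at 20 dpa, and most points at 0 and 5 dpa lie near 0.

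Among the transcripts listed under synthesis, CYP87A2 differed most, and only late. By its array description it is of another cytochrome P450 family than CPD, the synthesis enzyme to which the study matched it. At 15 dpa it was lower in the fl mutant, with values of -4.36, -3.93 and -4.65 in the fl mutant replicates, against 3.99, 4.04 and 3.93 in WT. The groups lay far apart and the WT replicates were close together. The means were -4.31 ± 0.36 in the fl mutant and 3.98 ± 0.05 in WT, a log2 difference of -8.30 (SE 0.17, limma adjusted p = 2.63e-07), or 314-fold lower. This was the most negative difference of any probe set tested at that stage, where the lowest value over all 24029 was also -8.30. At 20 dpa the fl mutant values were 2.84, 2.82 and 2.68, against -3.78, -2.68 and -2.81 in WT. By the labels the transcript was thus 58.7-fold higher in the fl mutant at 20 dpa (log2 difference 5.87, SE 0.25, limma adjusted p = 4.75e-07), with WT replicate 1 lying about a log2 unit below the other WT replicates. At 10 dpa its 6 values did not overlap between genotypes but the difference was small, -0.42 (SE 0.12, limma adjusted p = 0.014), and at 0 and 5 dpa the differences were 0.16 and 0.34, with limma adjusted p of 0.452 and 0.0906. The step between stages was tested as well: the genotype difference fell by 7.88 log2 units between 10 and 15 dpa (SE 0.30, limma adjusted p = 7e-18). Among the fibre markers, FLA6, a fasciclin-like arabinogalactan protein, had log2 differences of -0.16 at 10 dpa, -6.92 at 15 dpa and 4.60 at 20 dpa. AGP2, by contrast, was already at -6.72 at 10 dpa and had -4.84 and 3.99 at the later stages. At 10 dpa 6 of the 8 fibre markers passed below WT (6.55% of all probe sets did) and 1 above it (4.91% of all).

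Of these transcripts CYP87A2 alone was also assayed by quantitative RT-PCR, and its primers are shown because they are the only sequences of these transcripts used here. Each has 24 bases with a GC content of 50.0%, and no bases are marked in capitals.
CYP87A2 forward primer: acgaactatgttccctcccttgac
CYP87A2 reverse primer: gaacttcatgccatttggaggagg

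DET2, the match to the steroid reductase of an early step of hormone synthesis, stood out at 10 dpa alone. Its values there were -1.71, -1.56 and -1.98 in the fl mutant, against 1.56, 1.65 and 2.02 in WT. Every fl mutant replicate lay more than 3 log2 units below every WT replicate. The log2 difference was -3.49 (SE 0.15, limma adjusted p = 2.47e-07), or 11.2-fold lower in the fl mutant. At 0 and 5 dpa the differences were 0.07 and -0.04, with limma adjusted p of 0.296 and 0.616. At 15 dpa the values still did not overlap, -0.17, -0.35 and -0.33 in the fl mutant against 0.17, 0.23 and 0.33 in WT, but the difference of -0.53 (SE 0.07, limma adjusted p = 0.00104) was under the fold threshold. At 20 dpa the fl mutant values were 0.39, 0.38 and 0.48, against -0.40, -0.38 and -0.67 in WT, a difference of 0.90 by the labels (SE 0.09, limma adjusted p = 7.35e-05) that also did not reach 3-fold. Tested between stages, the genotype difference fell by 3.56 log2 units between 0 and 10 dpa (SE 0.14, limma adjusted p = 2.6e-17), and rose by 2.96 between 10 and 15 dpa (SE 0.14, limma adjusted p = 1.06e-15).

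The SMT2 matches, named for the enzyme that methylates the sterol side chain, moved apart from each other. SMT2-2 was lower in the fl mutant at 10 dpa, with values of -0.79, -1.12 and -0.92 in the fl mutant, against 0.79, 0.84 and 0.92 in WT. The log2 difference was -1.79 (SE 0.10, limma adjusted p = 1.27e-06), or 3.47-fold lower, not far past the threshold. At 15 dpa the order of the genotypes was the other way round, 0.49, 0.51 and 0.53 in the fl mutant against -0.58, -0.59 and -0.49 in WT. That difference of 1.06 (SE 0.05, limma adjusted p = 6.6e-06) was 2.09-fold and did not pass the fold threshold, but the change of the genotype difference between 10 and 15 dpa did (difference 2.85, SE 0.09, limma adjusted p = 2.54e-19). At 5 dpa the values were -0.29, -0.44 and -0.40 in the fl mutant, against 0.32, 0.35 and 0.29 in WT, a difference of -0.70 by the labels, and at 0 and 20 dpa the differences were -0.0038 and 0.22.

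A further probe set of the same cotton transcript cluster, with the cotton gene symbol LOC107905551, is listed beside it. Its log2 differences were -0.60, -0.63, -1.59, 1.28 and -0.36 from 0 to 20 dpa, and it passed only at 10 dpa, where it was 3.01-fold lower in the fl mutant (SE 0.08, limma adjusted p = 6.64e-07). The pair therefore had the same sign at 5, 10 and 15 dpa, and opposite signs at 20 dpa. The probe sets may bind in part the same transcripts, so they do not count as separate genes.

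NMT2, by its array description an enzyme of phosphocholine synthesis, went the other way. At 10 dpa its values were 0.49, 0.62 and 0.61 in the fl mutant, against -0.49, -0.63 and -0.85 in WT, a log2 difference of 1.23 (SE 0.11, limma adjusted p = 1.76e-05) that was 2.34-fold and under the fold threshold. At 20 dpa the values were 1.33, 1.31 and 1.32 in the fl mutant, against -1.52, -1.47 and -1.31 in WT. The fl mutant replicates differed by hardly more than 0.02, and by the labels the transcript was 6.74-fold higher there (log2 difference 2.75, SE 0.07, limma adjusted p = 4.57e-08). At 0, 5 and 15 dpa its differences lay between -0.17 and 0.10, and none passed.

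The receptor matches were alike at 0 dpa and opposite at 10 dpa. At 0 dpa the LRR BRI1 match had values of -0.81, -0.37 and -0.46 in the fl mutant, against 0.45, 0.55 and 0.37 in WT. The receptor-like BRI1 match had -0.48, -0.50 and -0.51 in the fl mutant, against 0.62, 0.48 and 0.63 in WT. Neither pair of groups overlapped, which was so for 4 of the 8 transcripts and for 56.9% of all probe sets at that stage. The log2 differences were -1.01 (SE 0.12, limma adjusted p = 0.000445) for the LRR BRI1 match and -1.07 (SE 0.06, limma adjusted p = 1.67e-05) for the receptor-like BRI1 match, each about 2-fold lower in the fl mutant and short of the 3-fold threshold. They were the lowest differences among the 8 at that stage, where the other 6 lay between -0.17 and 0.16.

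At 10 dpa the LRR BRI1 match had -1.05, -1.18 and -1.11 in the fl mutant, against 1.07, 1.15 and 1.05 in WT. The receptor-like BRI1 match had 1.01, 1.57 and 1.08 in the fl mutant, against -1.01, -1.17 and -1.37 in WT. The replicates of each genotype were tight for the first and wider for the second, and the groups did not overlap in either. The LRR BRI1 match was 4.61-fold lower in the fl mutant (log2 difference -2.21, SE 0.08, limma adjusted p = 1.01e-07) and the receptor-like BRI1 match was 5.29-fold higher (log2 difference 2.40, SE 0.16, limma adjusted p = 3.16e-06). At 5 dpa the differences were -0.12 and -0.03, and the genotypes overlapped in both. At 15 dpa the receptor-like BRI1 match was still above WT by 0.80 (SE 0.06, limma adjusted p = 8.62e-05), and the LRR BRI1 match by 0.32 (SE 0.07, limma adjusted p = 0.00955), both under 3-fold. At 20 dpa the differences were -0.36 for the LRR BRI1 match and 0.11 for the receptor-like BRI1 match.

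Between 0 and 10 dpa the genotype difference of the receptor-like BRI1 match changed sign, by 3.48 log2 units (SE 0.17, limma adjusted p = 2.12e-15), and that of the LRR BRI1 match moved by -1.20 (SE 0.14, limma adjusted p = 1.97e-08), which did not reach 3-fold. Between 10 and 15 dpa the changes were -1.61 (SE 0.17, limma adjusted p = 7.61e-09) for the receptor-like BRI1 match and 2.52 (SE 0.14, limma adjusted p = 1.19e-14) for the LRR BRI1 match. The first of these is barely past 3-fold, and without replicate 2 it was -1.46 and did not pass. A further BRI1 match that the array itself describes as BRI1 was followed for comparison. Its log2 differences were -0.11, -0.33, 0.10, 0.84 and -1.77 from 0 to 20 dpa, and it passed only at 20 dpa, 3.41-fold lower in the fl mutant by the labels. At 0 dpa its values did not overlap either and were lower in the fl mutant, by less than those of the other BRI1 matches, and at 10 dpa it did not pass.

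**Figure D2:**
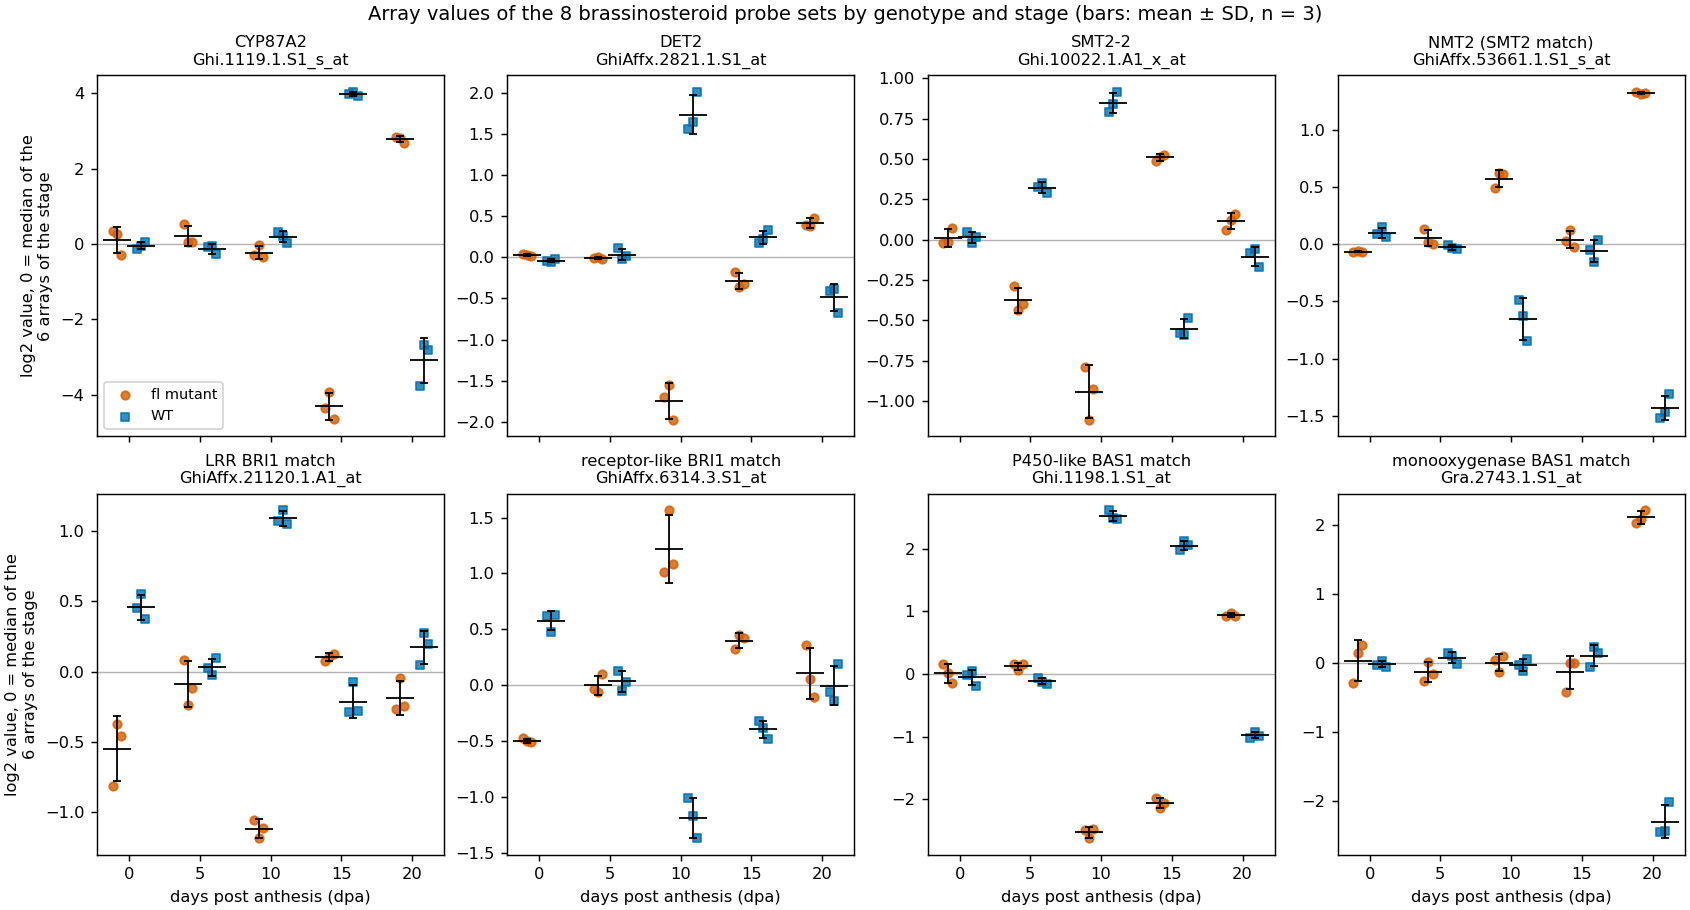
Log2 value of each array (points) for the 8 probe sets (panels) by stage, fl mutant in orange and WT in blue, with 0 at the median of the 6 arrays of the stage and black bars for mean ± SD (n = 3); the vertical scale differs between panels. The P450-like BAS1 match is about 2.53 log2 units below 0 in fl mutant arrays at 10 dpa. WT arrays lie about as far above 0, which largely follows from the centring where the genotypes do not overlap. The BRI1 pair have opposite orders of the genotypes at 10 dpa.

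Of the inactivation genes, the P450-like BAS1 match passed at more stages than any other of the 8. This BAS1 match, described as a cytochrome P450-like protein, had values of -2.49, -2.63 and -2.48 in the fl mutant at 10 dpa, against 2.62, 2.49 and 2.48 in WT. It was 33.4-fold lower in the fl mutant (log2 difference -5.06, SE 0.09, limma adjusted p = 3.7e-09), the largest difference of the 8 at that stage. At 15 dpa the values were -1.99, -2.15 and -2.06 in the fl mutant, against 1.99, 2.12 and 2.05 in WT, or 17.4-fold lower (log2 difference -4.12, SE 0.06, limma adjusted p = 8.84e-08). At 20 dpa they were 0.93, 0.98 and 0.93 in the fl mutant, against -1.02, -0.93 and -0.99 in WT. By the labels this was 3.80-fold higher in the fl mutant (log2 difference 1.93, SE 0.06, limma adjusted p = 1.26e-07). Its sign was the opposite of that at 15 dpa, as it was for CYP87A2 and for most fibre markers. EXPA2 stayed below WT at both stages (-1.41 and -1.13), and the MYB25 marker went the other way (0.66 and -0.26). At 5 dpa the difference was 0.24, and at 0 dpa, where the replicates of the genotypes were mixed, 0.06. The genotype difference fell by 5.12 log2 units between 0 and 10 dpa (SE 0.10, limma adjusted p = 4.15e-23), and the step of 0.94 between 10 and 15 dpa (SE 0.10, limma adjusted p = 1.12e-08) was under 3-fold.

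The other BAS1 match, the monooxygenase BAS1 match, is on the array from a transcript of Gossypium raimondii, a diploid relative. It showed no difference past the thresholds before 20 dpa, with log2 differences of 0.05, -0.21, 0.04 and -0.24 and overlapping genotypes at each of those stages. At 20 dpa its values were 2.02, 2.08 and 2.21 in the fl mutant, against -2.44, -2.43 and -2.02 in WT. By the labels it was 21.1-fold higher in the fl mutant (log2 difference 4.40, SE 0.12, limma adjusted p = 4.99e-08). The intervals at the earlier stages (95%) reached from -0.27 to 0.37 at 0 dpa and from -0.18 to 0.26 at 10 dpa, so that differences of 3-fold there lie outside them.

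Another 6 probe sets in the hormone table share the BAS1 match, though the array describes only 2 of them as BAS1. At 10 dpa 4 of the 6 passed, all above WT (4.91% of all probe sets did), by 7.69-fold, 6.93-fold, 4.15-fold and 3.04-fold. This is the direction opposite to the P450-like BAS1 match. The other 2 had log2 differences of 0.85 and -0.62, under the fold threshold. None of the 6 passed at 15 dpa, where 3.43% of all probe sets did. At 20 dpa 1 passed, 4.39-fold lower in the fl mutant by the labels (1.95% of all probe sets passed below WT). It was the one at -0.62 at 10 dpa. At 5 dpa 2 passed, 5.14-fold and 3.68-fold higher in the fl mutant by the labels, where 441 of all 24029 probe sets passed above WT.

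The change of the genotype difference between stages was tested for all 8 in 1 fit of the 30 arrays. Between 0 and 10 dpa it passed for 4 of the 8, against 13.3% of all probe sets, with 1 upward (6.76% of all) and 3 downward (6.50% of all). Between 10 and 15 dpa it passed for 5, against 12.6%, with 3 upward (7.15%) and 2 downward (5.42%). Between 0 and 15 dpa it passed for 3, against 5.28%, with 1 upward (3.12%) and 2 downward (2.16%). Between 5 and 20 dpa it passed for 4, against 7.36%, and by the labels all 4 were upward (3.14%, with 4.22% downward). DET2, SMT2-2 and the LRR BRI1 match, which lay below WT at 10 dpa, had differences that rose again by 2.96, 2.85 and 2.52 log2 units at 15 dpa. CYP87A2 moved the other way over the same interval. The first 3 comparisons share stages and therefore arrays, so they are not separate evidence. Since the transcripts were listed for passing at some stage on these arrays, large changes between stages were favoured by that choice. These counts are no evidence that the genotype difference changes more often than in other genes. Between 5 and 20 dpa the rises were 5.53 for CYP87A2, 4.61 for the monooxygenase BAS1 match, 2.67 for NMT2 and 1.69 for the P450-like BAS1 match, and exchanging the labels of both stages would turn all 4 signs.

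**Figure D3:**
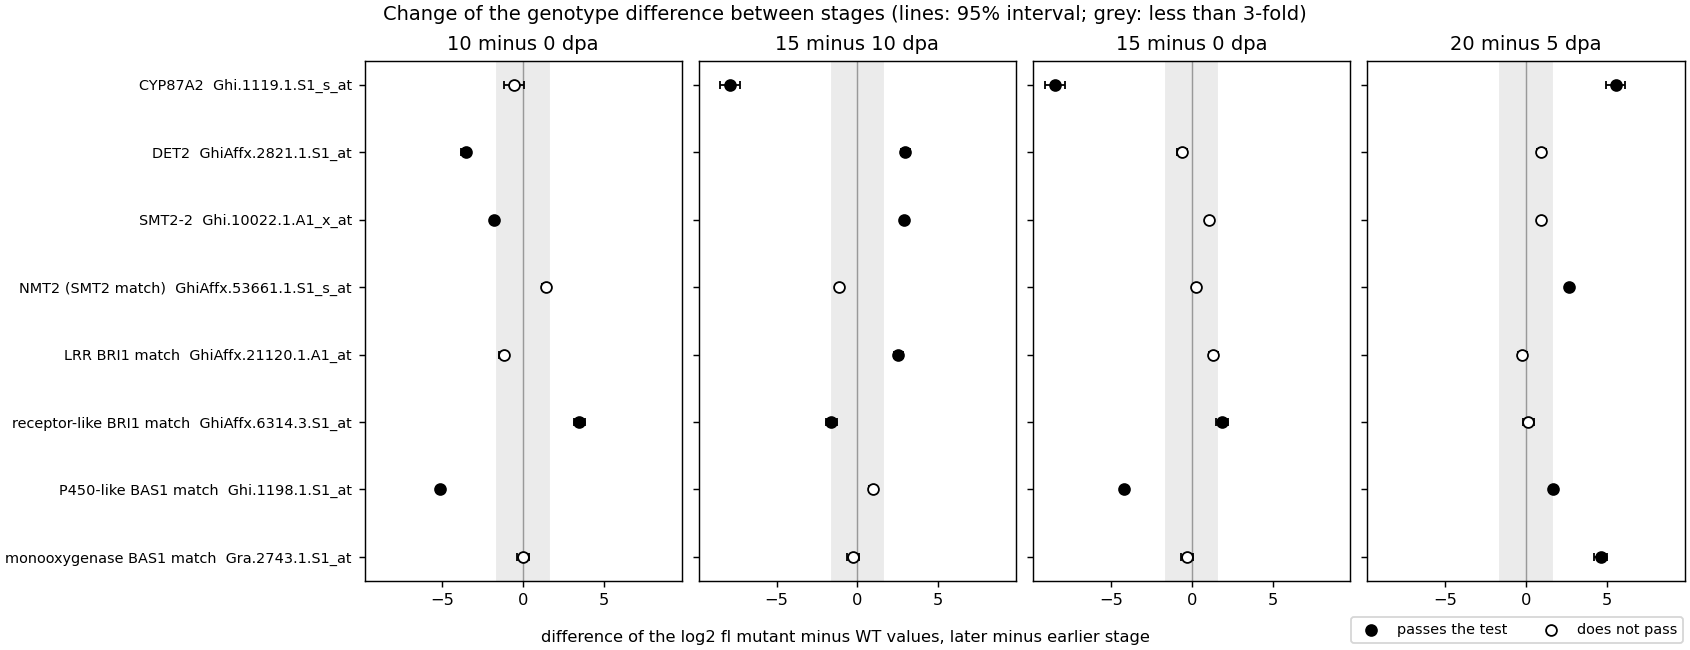
Change of the log2 fl mutant minus WT difference between the named stages (panels), later minus earlier, for the 8 probe sets (rows); lines are 95% intervals of limma, filled points pass the test, and the grey band holds changes under 3-fold. CYP87A2 has the widest changes, -8.45 between 0 and 15 dpa and 5.53 between 5 and 20 dpa by the labels.

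A further 76 listed probe sets of brassinosteroid and sterol genes were read in the same way. They too were listed by the study for passing on these arrays, so their counts describe timing and direction only. At 10 dpa, 5 of the 9 transcripts of the sterol list passed below WT (6.55% of all probe sets did) and 1 passed above it (4.91% of all), with a median log2 difference of -1.85, against 0.04 over all probe sets. Those lower were 3 of the 4 matches to SMO2, a sterol methyl oxidase, and both matches to HSD1, a hydroxysteroid dehydrogenase, 1 of which had the median value. Among them the largest difference was that of an HSD1 match, 5.41-fold lower, and the transcript that was higher was SQE3, a squalene epoxidase match, 10.5-fold. At 15 dpa 2 passed below WT (1.91% of all) and 1 above it (1.52% of all), the largest being another SQE3 match, 4.52-fold lower, and the same SQE3 match as at 10 dpa, 4.0-fold higher. Among the synthesis matches DET2 and SMT2-2 also passed below WT at 10 dpa, while NMT2 had 1.23 and CYP87A2 had -0.42 there, neither passing.

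At 10 dpa, 3 of the 11 other receptor matches passed above WT (4.91% of all) and 1 passed below it (6.55% of all), with a median of -0.03. Of the 4 matches to BRL3, a close relative of BRI1, 1 was 13.2-fold higher at 10 dpa and 12.6-fold lower at 15 dpa. In all, 2 of the 4 passed above WT at 10 dpa and none below, and at 15 dpa only that 1 passed. A BRL1 match was 4.54-fold lower at 10 dpa. Another BRL1 match was 3.27-fold higher at 15 dpa. At 20 dpa, by the labels, 6 of the 11 passed below WT (1.95% of all) and 1 above it (2.47% of all), with a median of -1.64, while the BRI1 pair among the 8 had -0.36 and 0.11 there. The opposite directions of the BRI1 pair at 10 dpa were thus found among the other receptor matches as well.

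At 10 dpa, 10 of the 19 signalling transcripts passed above WT (4.91% of all) and 5 passed below it (6.55% of all), with a median of 1.59, and the genotypes did not overlap in any of the 19, against 64.3% of all probe sets. All 3 matches to BIN2, the kinase that holds the pathway off in the absence of hormone, were higher, with log2 differences from 1.70 to 1.91. The matches to BEE1 and BEE2, transcription factor genes induced by the hormone in Arabidopsis, were lower at -2.96 and -3.39, the BEE2 match being 10.5-fold lower. MYB30, a transcription factor of the same response, was lower at -1.96, and BRX, needed for normal root growth, at -2.59. Also passing above WT were 2 of the 3 matches to the co-receptor SERK1, at 2.11 and 3.40 (the third had -0.79), GF14-PHI at 1.63 and MSBP1 at 1.59, and GF14-EPSILON passed below at -1.60. The largest rise was that of BRS1, a serine carboxypeptidase match, 11.4-fold. At 15 dpa 3 passed above WT (1.52% of all) and none below, all of them BRS1 matches, 1 of them 6.26-fold higher.

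At 10 dpa, 16 of the 36 other inactivation transcripts passed above WT (4.91% of all) and 7 passed below it (6.55% of all), with a median of 1.32, where the P450-like BAS1 match was at -5.06, below the lowest of the 36 at -3.48. That lowest was 1 of 12 matches to BEN1, a reductase, 11.2-fold lower. The highest was 1 of 5 matches to SOT12, a sulfotransferase, 19.2-fold higher. Other matches of the same names went the other way. Of the BEN1 matches 2 passed above WT and 3 below, and of the SOT12 matches 2 above and 1 below. The 7 matches to UGT73C5, a glucosyltransferase, had 3 above and 3 below. Among the 6 matches to CYP72C1, another cytochrome P450 that lowers active hormone, 5 passed above WT and the sixth had a log2 difference of -1.13, under the fold threshold. At 15 dpa 2 passed above WT (1.52% of all) and none below, 1 of them a UGT73C5 match, by 4.43-fold. Several BEN1 matches are described on the array as flavonoid genes, dihydroflavonol reductase and anthocyanidin reductase among them, and 2 of these are also in the seed coat marker list. At 20 dpa, by the labels, 8 of the 12 BEN1 matches passed below WT (1.95% of all), as did all 5 seed coat flavonoid markers.

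**Figure D4:**
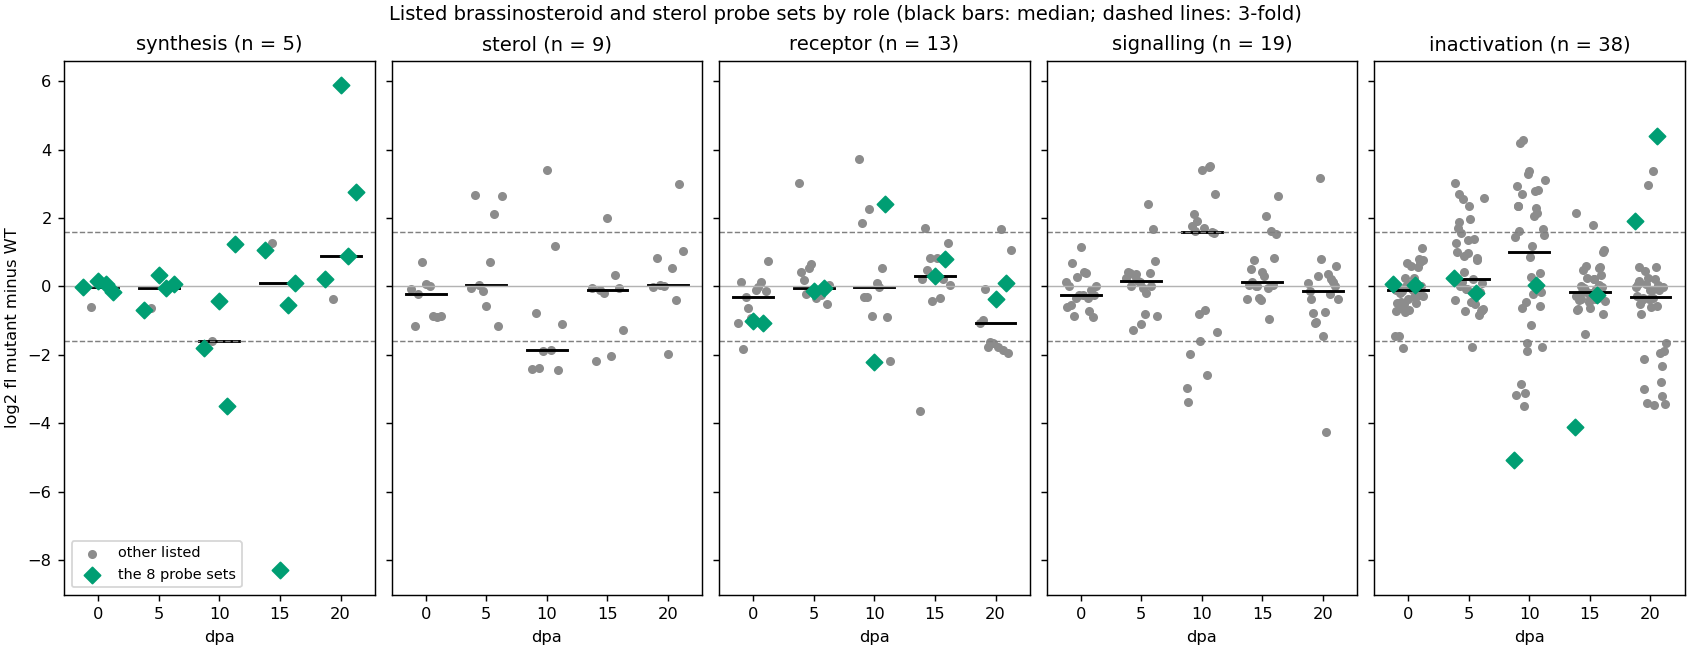
Log2 fl mutant minus WT difference of the 84 listed probe sets by role (panels) and stage, with the 8 described here as green diamonds, the others as grey points, black bars at the median of each list and dashed lines at 3-fold. At 10 dpa the sterol list lies mostly below 0 (median -1.85) and the signalling list mostly above 0 (median 1.59), and the lowest inactivation transcript at 10 and 15 dpa is the P450-like BAS1 match.

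For each of the 8, the course over the 5 stages was set against those of 1463 other probe sets that carry an Arabidopsis gene symbol in the study's tables, by the Euclidean distance between the 5 log2 differences. This measure does not change if labels are exchanged at a stage. Nearest to CYP87A2 were FLA7 (distance 1.47) and FLA11 (distance 1.94), both fasciclin-like arabinogalactan proteins. FLA7 had log2 differences of -0.22, -6.92 and 5.48 at 10, 15 and 20 dpa, and FLA11 had 0.24, -7.04 and 4.67. The FLA11 probe set is of the same cotton transcript cluster as the fibre marker FLA6, so FLA6 and FLA11 do not count as separate genes. Nearest to the P450-like BAS1 match were 2 probe sets matched to CNI1, a carbon and nitrogen response gene, at distances of 1.29 and 1.47. Both had their lowest values at 10 and 15 dpa.

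The nearest courses to DET2 were those of Hop3, a stress-inducible protein (distance 0.79), and of the mitochondrial alternative oxidase AOX1A (distance 0.83), which had -3.16 and -3.36 at 10 dpa. SMT2-2 lay nearest to RD22 (distance 0.30) and the histone HTA5 (distance 0.36), both lower at 10 dpa and higher at 15 dpa by over a log2 unit each. The LRR BRI1 match lay nearest to the polyubiquitin UBQ10 (distance 0.39) and the phosphatase ATPP2CA (distance 0.66), and the receptor-like BRI1 match to the kinase OST1 (distance 0.90) and TRFL6 (distance 0.90). NMT2 was nearest to an ARP2/3 complex subunit (distance 0.73) and ATERF6 (distance 0.75). The monooxygenase BAS1 match was nearest to PAS1 (distance 1.03) and to a sulphotransferase match (distance 1.08), which had 4.96 and 3.38 at 20 dpa by the labels. Small distances were found for transcripts with small differences, so distances are not to be ranked across the 8.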

How the data were processed

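Per the labels and the study's methods, total RNA of field-grown ovules was hybridised to Affymetrix cotton GeneChip arrays, and the authors made the deposited log2 values by RMA (background correction, quantile normalization, median polish) in GeneSpring GX. In the table each probe set is also centred, stage by stage, on the median of 6 arrays (checked on all 24132 rows), so levels between stages or probe sets were not compared. The 103 Affymetrix controls were left out, and 24029 probe sets were tested on 30 arrays. Precision is limited by 3 arrays per group. No 2 arrays were identical.

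The 3 fl mutant and 3 WT arrays of a stage were compared with limma 3.58.1 in R 4.3.3 (lmFit, eBayes). Changes between stages were tested in 1 limma fit of all arrays. Passing meant p no greater than 0.01 after Benjamini-Hochberg adjustment over all probe sets, and a fold change of 3 or more. The fits were tested on simulated data. Alternatives were the methods' unpaired test of equal variances, all arrays in 1 fit, a replicate block, other centring, other thresholds, each array left out, and exchanged labels at 5 and 20 dpa.

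The members and lists were chosen with earlier results of these data known, and all came from the study's tables of passing transcripts. Beyond the 8, the text names the largest passing difference in each direction per role list at 10 and 15 dpa, other matches to SMT2, BRI1 and BAS1, and the 2 nearest courses for each of the 8; transcripts named beyond this rule, among them those matched to BIN2, BEE1, MYB30, BRX, SERK1, CYP72C1 and SMO2, were picked after their values were seen. Of the 84 listed probe sets, 8 have a cotton gene symbol. The study's own fold changes were not used. Tables and plots were made in Python 3.11.15.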

Additional observations from a re-analysis of the deposited data

Results flagged for a closer look

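These transcripts are set apart because the genotype difference itself changed between stages by at least 3-fold in a test of that change (limma adjusted p at most 0.01), with values as differences of log2 differences, later minus earlier stage. Between 0 and 10 dpa this held for DET2 (-3.56), SMT2-2 (-1.79), the receptor-like BRI1 match (3.48) and the P450-like BAS1 match (-5.12). Between 10 and 15 dpa it held for CYP87A2 (-7.88), DET2 (2.96), SMT2-2 (2.85), the LRR BRI1 match (2.52) and the receptor-like BRI1 match (-1.61). Between 0 and 15 dpa it held for CYP87A2 (-8.45), the receptor-like BRI1 match (1.87) and the P450-like BAS1 match (-4.18). Between 5 and 20 dpa, by the labels, it held for CYP87A2 (5.53), NMT2 (2.67), the P450-like BAS1 match (1.69) and the monooxygenase BAS1 match (4.61). The listing of these transcripts for passing at some stage on the same arrays favoured such changes. Groups of 3 arrays were not tested for single outlying arrays.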

How the results depend on the processing

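The 11 differences that passed kept their direction and passed in all 143 alternatives run on them, which included each array left out but not the exchange of labels. The looser thresholds among these reuse the main fit, so a difference that passed could not fail them. With exchanged labels at 20 dpa, which turns every sign there by construction, 0 transcripts were higher and 4 lower. With a fold of at least 2 in place of 3, the LRR BRI1 match (-1.01) and the receptor-like BRI1 match (-1.07) also passed at 0 dpa. So did NMT2 at 10 dpa (1.23) and SMT2-2 at 15 dpa (1.06). The share of all probe sets that pass at this fold was not computed. Between 10 and 15 dpa the downward changes numbered 1 with arrays centred on the 75th percentile and 1 to 2 with a replicate left out, since the receptor-like BRI1 match (-1.61) went to -1.54 and, without replicate 2, to -1.46. Leaving out 5 and 20 dpa, chosen after seeing the data, left only the P450-like BAS1 match passing at 2 or more stages. The share of all probe sets that do so was not computed.

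Apart from the exchange of labels, signs turned only for differences near 0 that did not pass. With the 75th percentile these were DET2 at 0 dpa (-0.020) and 5 dpa (0.021), the P450-like BAS1 match at 0 dpa (-0.027), the monooxygenase BAS1 match at 0 dpa (-0.039), 10 dpa (-0.032) and between them (0.0068), and the receptor-like BRI1 match at 5 dpa (0.029). With the median they were the monooxygenase BAS1 match at 0 dpa (-0.0051) and 10 dpa (-0.0027), DET2 at 5 dpa (0.0043) and the receptor-like BRI1 match at 5 dpa (0.012). With 1 array or replicate left out, the ranges were -0.011 to 0.14 for the P450-like BAS1 match at 0 dpa, -0.062 to 0.22 for the monooxygenase BAS1 match at 0 dpa, -0.012 to 0.11 at 10 dpa and -0.19 to 0.12 between them, -0.083 to 0.013 for the receptor-like BRI1 match at 5 dpa, -0.017 to 0.21 at 20 dpa and -0.073 to 0.39 between them, and -0.035 to 0.013 for SMT2-2 at 0 dpa. Centring moved the median of all probe sets by at most 0.09.

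Same-numbered replicates of the genotypes share only a number: their deviations from the group means correlated between -0.16 and 0.16 over 15 pairs, 2 of them above 0.1. With the replicate block the counts that passed were 0, 0, 5, 2 and 4 at the 5 stages, the same as without it.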
